A study of Mus musculus with 3 samples.

Results

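Colony-stimulating factors are the cytokines that drive the growth, survival and activation of macrophages and granulocytes, and the 8 mouse genes of the 3 ligands (*Csf1*, *Csf2*, *Csf3*) and of 5 receptor chains (*Csf1r*, *Csf2ra*, *Csf2rb*, *Csf2rb2*, *Csf3r*) were followed here in RAW macrophages, a mouse macrophage line transformed by the Abelson leukemia virus. The genes were found by symbol among the gene probes of the array, where they had 15 probes, each spotted once, out of 56605 gene probes and of 24770 genes with a recognised symbol. RNA was hybridised in 1 colour to SurePrint G3 Mouse microarrays, with 1 array for each of 3 conditions. The LPS macrophages received 50 ng/mL of LPS, the TLR4 agonist of Gram-negative bacteria, and no lactobacilli. The CRL1505 + LPS macrophages were first given *L. rhamnosus* CRL1505 at 50000000 cells/mL for 24 h and then the same LPS, and the CRL1506 + LPS macrophages were treated alike with the strain *L. plantarum* CRL1506. All 3 conditions were therefore LPS-stimulated, and the time under LPS is given as 12 h in the design of the study and as 3 h in the sample descriptions. Unstimulated macrophages were not analysed here, and each ratio below sets a strain against LPS alone or the strains against each other.

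Each condition rests on 1 array without a replicate, so differences are described and not tested. CRL1505 + LPS was hybridised on a slide of its own and scanned in a run of its own, whereas the other 2 conditions shared a slide and a scan run, so that strain and slide cannot be told apart for CRL1505. The 8 macrophage markers examined were well above background on each array, with a summed scaled intensity of 546.3 (LPS), 624.2 (CRL1505 + LPS) and 488.1 (CRL1506 + LPS). *Lyz2* made up most of each sum, at 338, 336.7 and 283.3. With CRL1505, 2 of the 8 were at least 2-fold higher than LPS, *Fcgr1* (5.28-fold) and *Adgre1* (4.83-fold), and 0 lower. The 2 *Adgre1* probes differed there, with log2 ratios of 1.25 and 2.27. With CRL1506, 1 of the 8 was just past 2-fold higher, *Adgre1* (2.005-fold), and 0 lower, while *Fcgr1* was 1.93-fold higher. Over all genes compared, 9.6% were that much higher and 8.53% lower for CRL1505, and 4.68% and 3.44% for CRL1506. The 3 epithelial markers were above background on no array. Of the 3 fibroblast markers, 2 (*Col1a1* and *Dcn*) were well above background on the CRL1506 + LPS array only, where the list summed to 0.363 against 0.087 for LPS and 0.083 for CRL1505 + LPS. T cell, B cell and neutrophil markers summed to at most 1.35 on any array, with 2 of 3, 2 of 3 and 3 of 4 well above background on each. These neutrophil markers were *Elane*, *Camp* and *Mpo* on the LPS and CRL1506 + LPS arrays, and *Elane*, *Camp* and *Ly6g* on the CRL1505 + LPS array. The LPS spot of *Ly6g* was marked as an outlier by the scanner software, so the LPS sum leaves it out. The part of such signals in the values below was not tested.

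CSF-1 binds the tyrosine kinase CSF1R, which macrophages carry throughout their life and which also binds IL-34. GM-CSF, the product of *Csf2*, binds a specific alpha chain (*Csf2ra*) together with the common beta chain (*Csf2rb*) shared with the receptors of IL-3 and IL-5, and mice have a second beta chain gene, *Csf2rb2*, whose product serves IL-3. G-CSF, the product of *Csf3*, binds CSF3R, the receptor of neutrophils and their precursors. Macrophages make all of these ligands after contact with bacterial products, and JAK and STAT proteins and their SOCS inhibitors relay and limit the signal of the GM-CSF and G-CSF receptors.

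Some member probes share sequence with other probes, and whether this affects their values was not tested. The array's *Csf3r* probe (mm9, chr4:125721478-125721537, plus strand) ended in 30 bases that were identical, 30 of 30, to the end of a probe for the transcript TC1653005 (mm9, chr4:145718198-145718257), which lies elsewhere on the same chromosome. Both are shown because the *Csf3r* result below rests on this single probe, and capitals mark bases that are the same in both.
Csf3r probe, last 30 bases: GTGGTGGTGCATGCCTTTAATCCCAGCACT
TC1653005 probe, last 30 bases: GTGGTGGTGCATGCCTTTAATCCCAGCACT

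The stretch resembles the B1 short interspersed repeat, which is present in many mouse transcripts. Out of 56605 gene probes, 7 others shared a run of at least 16 bases with the *Csf3r* probe. The brightest *Csf2rb* probe (mm9, chr15:78181168-78181227, plus strand) and the only *Csf2rb2* probe (mm9, chr15:78113126-78113185, minus strand) were identical at 27 of the 30 bases of their best aligned windows, with a longest run of 10. They are shown because the beta chain genes are near copies of each other and their signals may be partly shared, and capitals mark the bases that differ.
Csf2rb probe: ggcagatcaaAtgtCccttggtctCtgttc
Csf2rb2 probe: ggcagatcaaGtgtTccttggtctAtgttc

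The other 3 *Csf2rb* probes matched the *Csf2rb2* probe at only 15 or 16 of 30 bases. Positions are those of the files, and whether a probe lies in a coding exon or a UTR was not determined here.

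Among the ligands, *Csf3* showed the widest difference from LPS of the 7 members that had a usable LPS spot. On LPS alone its probe (mm9, chr11:98564614-98564673, plus strand) gave an intensity of 112, against 904 with CRL1505 and 537 with CRL1506, each well above background. After each array was divided by its own 75th percentile of gene spots, the scale used for all levels below and called scaled intensity, these became 0.151, 1.75 and 0.769. The LPS spot was the dimmest of the 3 and the CRL1505 spot the brightest. The log2 ratio to LPS was 3.53 ± 0.22 for CRL1505 (11.6-fold higher) and 2.35 ± 0.22 for CRL1506 (5.09-fold higher), where the error is that of the scanner software for single spots and covers no biological variation. CRL1505 + LPS exceeded CRL1506 + LPS by a log2 ratio of 1.19 ± 0.21 (2.27-fold). Over 10 normalization and signal settings *Csf3* stayed past 2-fold for both strains against LPS, at 2.79 to 3.83 and 1.78 to 2.35, whereas the difference between the strains ran from 0.79, with spike-in scaling, to 1.68. In RNA of a whole culture, more cells that express a gene and more RNA per cell cannot be told apart.

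The gene whose ratios to LPS lay closest to those of *Csf3*, among 12440 genes measured on all arrays, was *Ifnb1*, the gene of interferon beta, at 3.46 for CRL1505 and 2.31 for CRL1506. Its distance from *Csf3* in the plane of these log2 ratios was 0.075. *3110006O06Rik* came next (3.14 and 2.05, distance 0.489), followed by *St18* (3.04 and 2.67), *Ms4a6d* (3.53 and 1.74) and *Cox6a2* (3.31 and 1.73). Likeness over 2 ratios that share the LPS array is a description only.

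*Csf1* moved one way with CRL1505 and the other with CRL1506. The brightest of its probes (mm9, chr3:107544333-107544392, minus strand) had a scaled intensity of 19.1 under LPS, 26.9 with CRL1505 and 11.2 with CRL1506. Its log2 ratio to LPS was 0.50 ± 0.20 for CRL1505 (1.41-fold higher) and -0.77 ± 0.20 for CRL1506 (1.71-fold lower), and between the strains 1.27 ± 0.20 (2.41-fold higher with CRL1505). Neither strain reached 2-fold against LPS, but the ratio of CRL1505 to CRL1506 did.

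A pair of further *Csf1* probes, designed to another transcript of the gene and sharing 31 bases with each other (mm9, chr3:107548521-107548580 and chr3:107548550-107548609), gave the same order of arrays. In the order LPS, CRL1505 + LPS and CRL1506 + LPS their scaled intensities were 1.12, 1.75 and 0.626 for the first and 0.872, 1.35 and 0.484 for the second. Their log2 ratios were 0.64 and 0.63 for CRL1505 against LPS, -0.84 and -0.85 for CRL1506 against LPS, and 1.48 for both between the strains. The fourth *Csf1* probe was too dim to be measured on each array. Under scaling to the 8 spike-in probes the CRL1505 ratio of the brightest probe was -0.01 and the ratio between the strains 0.87, one of 2 settings of 10 in which the latter was under 2-fold, while the other settings gave the CRL1505 ratio a sign above 0, up to 0.79, and the CRL1506 ratio stayed between -0.97 and -0.66.

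**Figure D1:**
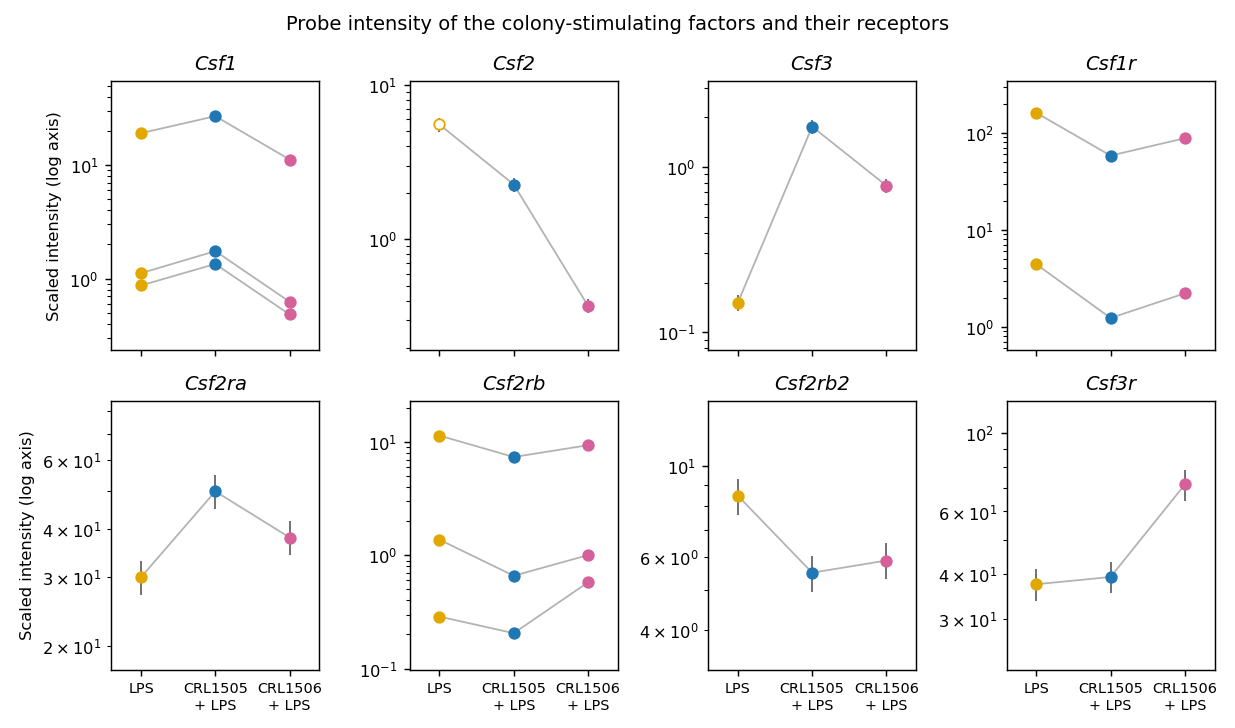
Scaled intensity (signal over the array's 75th percentile, log axis, range set per gene) of each member probe that was above background, on the LPS (yellow), CRL1505 + LPS (blue) and CRL1506 + LPS (pink) arrays, with lines joining a probe's values and bars for the scanner software's error. The open point is the *Csf2* outlier spot, *Csf3* rises from 0.151 to 1.75 and 0.769, and the probes of *Csf1* and of *Csf1r* run in parallel.

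*Csf2* differed more than any other member between the strains, and its comparison with LPS could not be made on a sound spot. Its only probe (mm9, minus strand, with chr11:54060772-54060799 given in the files for 28 of its 60 bases) had an intensity of 4105 under LPS, 1169 with CRL1505 and 259.6 with CRL1506, and the LPS spot was marked as an outlier by the scanner software. Its pixels had a mean of 4356, a median of 3393 and an SD of 2650, so that the mean exceeded the median by 0.36 on the log2 scale, against 0.01 and 0.17 for the CRL1505 and CRL1506 spots. Of the 20 nearest spots, 8, 7 and 6 were uneven in this way (by more than 0.2) on the LPS, CRL1505 + LPS and CRL1506 + LPS arrays. For the probes of the other members at most 3 of 20 were uneven on any array.

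Between the strains neither *Csf2* spot was marked as an outlier, although both had uneven neighbours. *Csf2* was higher with CRL1505 than with CRL1506, at a scaled intensity of 2.26 against 0.372. This was a log2 ratio of 2.60 ± 0.21 (6.08-fold), and 2.21 to 3.1 over 9 settings. Where the LPS spot was kept in spite of its mark, its scaled intensity was 5.52 and the log2 ratio to LPS was -1.29 for CRL1505 and -3.89 for CRL1506. With the median pixel, which is less open to a few bright pixels, the ratios were -0.93 and -3.64, and with spike-in scaling -1.80 and -4.00. The LPS spot was thus the brightest of the 3 in each version, by less than 2-fold over CRL1505 in the median pixel version and in the deposited log2 table (-0.95), and these values are no more reliable than that spot.

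*Csf1r*, the CSF-1 receptor of macrophages, was lower with both strains, and more so with CRL1505. Its bright probe (mm9, chr18:61290725-61290784, plus strand) gave a scaled intensity of 162 under LPS, 58.4 with CRL1505 and 88.4 with CRL1506. The log2 ratio to LPS was -1.47 ± 0.20 for CRL1505 (2.77-fold lower) and -0.87 ± 0.20 for CRL1506 (1.83-fold lower). A weaker probe of the gene (mm9, chr18:61278661-61278720) gave 4.43, 1.23 and 2.22, or -1.84 and -0.997.

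Both *Csf1r* probes ordered the arrays in the same way, LPS above CRL1506 + LPS above CRL1505 + LPS, and the gap between the strains was -0.60 for the bright probe and -0.85 for the other. CRL1505 stayed past 2-fold against LPS in each of 10 settings, at -1.97 to -1.17. CRL1506 ran from -1.07 to -0.68. The gap between the strains kept its sign but narrowed to -0.10 when arrays were shifted by their median.

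The GM-CSF receptor chains changed by less than 2-fold on their brightest probes, with the alpha chain above LPS and the beta chains below it. *Csf2ra* (mm9, chr19:61300336-61300395, minus strand) had a scaled intensity of 30.04 under LPS, 49.9 with CRL1505 and 38.0 with CRL1506, or log2 ratios to LPS of 0.73 ± 0.20 and 0.34 ± 0.20. The CRL1505 value ran from 0.22 with spike-in scaling to 1.03 with the median shift.

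For the common beta chain *Csf2rb*, the brightest probe read 11.5, 7.41 and 9.42 in the same order of arrays, with log2 ratios of -0.63 ± 0.20 for CRL1505 and -0.28 ± 0.20 for CRL1506. *Csf2rb2*, the near copy shown above, read 8.47, 5.51 and 5.90, with -0.62 ± 0.20 and -0.52 ± 0.20. The pair of strains differed for *Csf2rb2* by -0.10, less than the spot error, and its sign turned to 0.40 with the median shift.

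The probes of *Csf2rb* did not all go the same way. A probe with little likeness to *Csf2rb2* (mm9, chr15:78179450-78179509) read 1.38, 0.661 and 1.01 in that order, or -1.06 ± 0.21 for CRL1505, just past 2-fold, and -0.45 ± 0.20 for CRL1506. A dimmer probe that spans 263 genomic bases (mm9, chr15:78176856-78177118) read 0.288, 0.205 and 0.578, or -0.49 ± 0.23 and 1.005 ± 0.21, and its CRL1506 + LPS spot was uneven, with a mean pixel 0.30 above the median on the log2 scale. With the median pixel its CRL1506 ratio was 0.61. For CRL1505 the 3 measured probes were all below LPS, whereas for CRL1506 the mean over probes was 0.09, opposite in sign to the brightest probe. The fourth *Csf2rb* probe was likewise too dim on each array.

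**Figure D2:**
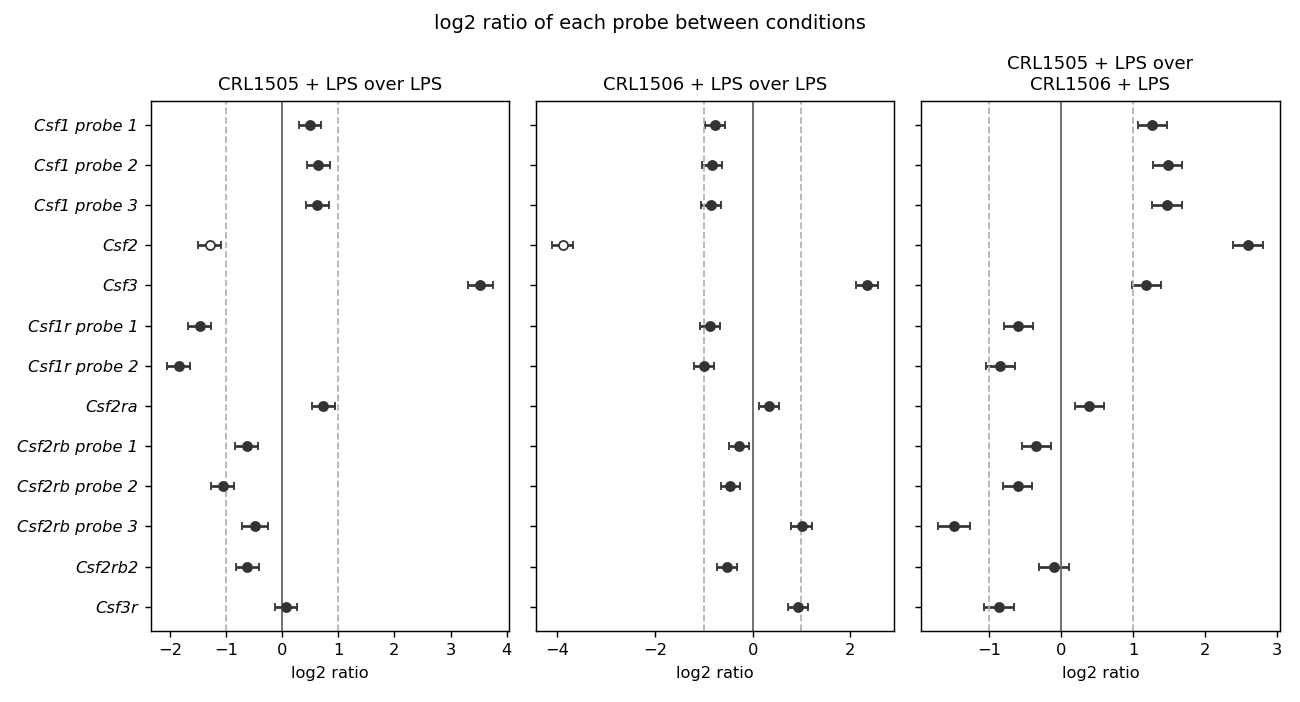
log2 ratio of each member probe (x axis) in the 3 comparisons, with bars for the scanner software's error of a ratio of single spots and dashed lines at 2-fold. Open points use the *Csf2* outlier spot, and *Csf1* probes lie above 0 for CRL1505 and below 0 for CRL1506.

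*Csf3r*, the G-CSF receptor, read 37.5 under LPS, 39.3 with CRL1505 and 71.5 with CRL1506. The log2 ratio to LPS was 0.07 ± 0.20 for CRL1505, less than its error and of the other sign in 5 of 10 settings, and 0.93 ± 0.20 for CRL1506, which ran from 0.73 to 1.07. The TC1653005 probe with the identical end read 51.6, 60.8 and 100.5, with ratios of 0.24 and 0.96.

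Of the 7 other probes that shared at least 16 bases with the *Csf3r* probe, 6 were well above background on all arrays. Their ratios to LPS had a median of 0.28 for CRL1505 (range -0.04 to 0.73) and of 1.04 for CRL1506 (range 0.36 to 1.39). *Kif28* (20 shared bases) was at 0.32 and 1.22, *Cript* (19) at 0.42 and 1.12, *Slc10a1* (18) at 0.09 and 0.36, *Cpd* (17) at 0.73 and 1.39, and *Gm2347* (16) at -0.04 and 0.52. The remaining probe, *6430531B16Rik* (16), was well above background on 1 array only and is not in these ranges. Over all genes compared the median was 0.01 for CRL1505 and -0.07 for CRL1506. How much of the *Csf3r* signal comes from transcripts that hold this repeat was not tested.

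**Figure D3:**
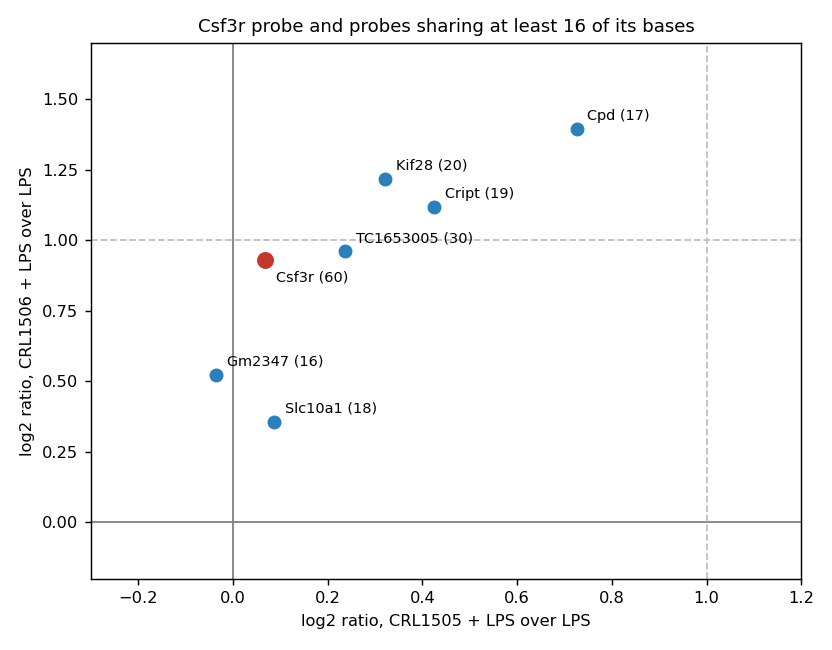
log2 ratio to LPS for CRL1505 (x axis) and for CRL1506 (y axis) of the *Csf3r* probe (red) and of the 6 other probes above background on all arrays that share at least 16 bases with it (blue), with the longest shared run in brackets and dashed lines at 2-fold. The *Csf3r* point, at 0.07 and 0.93, lies near that of TC1653005, at 0.24 and 0.96.

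Counted over the members on the brightest probe of each gene, 7 could be compared with LPS for CRL1505, of which 1 was at least 2-fold higher (*Csf3*) and 1 at least 2-fold lower (*Csf1r*). Over all 14903 genes compared, 9.6% were that much higher and 8.53% that much lower, so the members' count was near the background. With CRL1506, 1 of 7 was at least 2-fold higher (*Csf3*) and 0 lower, where 4.68% and 3.44% of 15477 genes were. Between the strains, 3 of 8 were at least 2-fold higher with CRL1505 and 0 lower, where 8.87% and 6.8% of 15021 genes were. The 3 were the 3 ligands, and the receptor chain nearest to 2-fold was *Csf3r*, at -0.86. That split depended on scaling, since *Csf3r* was past 2-fold in 4 of 10 settings, with quantile normalization (-1.17), cyclic loess (-1.11), spike-in scaling (-1.26) and the deposited table (-1.17), and since of the ligands only *Csf2* stayed past 2-fold with spike-in scaling (*Csf1* 0.87, *Csf3* 0.79).

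The median log2 ratio of the members was 0.07, -0.28 and 0.15 in these comparisons, against 0.01, -0.07 and 0.04 over all genes compared. Shifting by the median instead of the 75th percentile moved the median of genes measured on both arrays from 0.05 to 0.35 for CRL1505 against LPS, from -0.07 to -0.27 for CRL1506 against LPS and from 0.09 to 0.59 between the strains, and spike-in scaling moved it to -0.45, -0.18 and -0.30. For CRL1505 against LPS, 15.5% of genes were then higher and 5.05% lower with the median shift, where members stood at 2 higher and 1 lower, and 4.8% and 19.9% with spike-in scaling, where members stood at 1 higher and 3 lower (*Csf1r*, and *Csf2rb* and *Csf2rb2* just past 2-fold). Between the strains the split was 23.7% and 2.61% with the median shift and 4.83% and 15.7% with spike-in scaling, and the members stood at 3 higher and 0 lower in the former and at 1 and 1 in the latter.

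The scanner software's error of about 0.20 can be set beside the spread of other probes. The ratio of a probe spotted repeatedly had a median SD of 0.048, 0.044 and 0.047 over its spots in the 3 comparisons, from at least 275 probes, and that of a gene with several probes had a median SD of 0.229, 0.215 and 0.324 between its probes, with a 95th percentile of 0.844, 0.978 and 1.15. The CRL1506 ratio of *Csf2rb*, the CRL1505 ratio of *Csf3r* and the difference between the strains for *Csf2rb2* were near or under these spreads. The ratios of *Csf3* to LPS, the CRL1505 ratio of *Csf1r* and the ratio of *Csf2* between the strains exceeded that percentile as well. Between the strains *Csf1* (1.27) and *Csf3* (1.19) were just above it, but below it with spike-in scaling (0.87 and 0.79). This percentile describes disagreement between probes on the same arrays. It covers no variation between cultures and is not a limit for a test, and *Csf2* and *Csf3* had a single probe each.

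**Figure D4:**
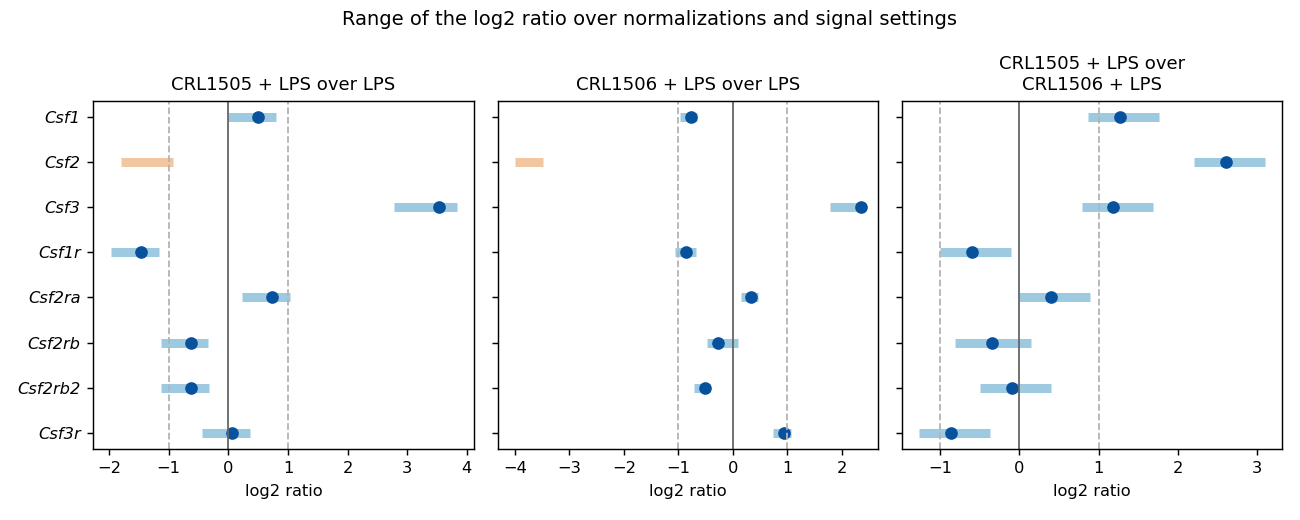
Lowest to highest log2 ratio of each member (bars, x axis) over the normalization and signal settings tried, with the reported value as a point and dashed lines at 2-fold. *Csf3* stays past 2-fold against LPS for both strains, *Csf1* and *Csf3r* reach across 0 for CRL1505, and the orange bars of *Csf2* use its outlier spot.

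Of 11 other ligands and receptors that share a receptor chain or a ligand class with the members, 5 could be compared for CRL1505, 7 for CRL1506 and 5 between the strains. *Il34*, the gene of the other CSF1R ligand, was at least 3.71-fold lower with CRL1505, a bound set by its dim CRL1505 spot, and its ratio for CRL1506 was -0.72. The LPS spot of *Il34* was uneven, with a mean pixel 0.30 above the median, and its CRL1505 value fell short of 2-fold, at -0.89, in at least 1 setting. Between the strains *Il34* was at least 2.25-fold lower with CRL1505, a bound that also fell short of 2-fold, at -0.45, in at least 1 setting. In the main setting no other gene of this list reached 2-fold in any comparison. The list had 0 higher and 1 lower with CRL1505, 0 and 0 with CRL1506, and 0 and 1 between the strains. Over all genes compared, the shares were 9.6% and 8.53%, 4.68% and 3.44%, and 8.87% and 6.8%.

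The 29 genes of receptor signalling, from the JAK kinases to SOCS proteins and phosphatases, were all measured. With CRL1505, 5 were at least 2-fold higher and 1 lower, where 9.6% and 8.53% of all genes compared were. *Stat3*, the main STAT of G-CSF signalling, was at 1.71, the SOCS inhibitors *Socs1* and *Socs3* at 1.54 and 1.48 (*Socs3* at 0.98 with spike-in scaling), and *Jak2*, the kinase of the GM-CSF receptor, at 1.53. The gene that was lower was *Inpp5d*, which encodes the lipid phosphatase SHIP1, at -1.39. With CRL1506, 0 were higher and 1 lower, *Cish* at -1.34, where 4.68% and 3.44% of all genes compared were. On their brightest probes *Stat3*, *Socs1*, *Socs3* and *Jak2* lay between -0.49 (*Socs3*) and 0.57 (*Stat3*) with CRL1506. The 3 measured *Stat3* probes ran from 0.57 to 1.04 with CRL1506, and 2 ran from 0.41 to 1.14 between the strains. *Socs3* was the most different between the strains, at 1.97. The list had 4 genes higher and 1 lower there, where 8.87% and 6.8% of all genes compared were. The median of the list was -0.02, -0.21 and 0.16 in the 3 comparisons.

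Of 15 transcription factors known for their part at CSF or CSF receptor genes, 1 was at least 2-fold higher and 1 lower with CRL1505, 0 and 1 with CRL1506, and 4 and 1 between the strains. The shares over all genes compared were, in the same order, 9.6% and 8.53%, 4.68% and 3.44%, and 8.87% and 6.8%. *Cebpa*, a factor of myeloid differentiation that acts on the *Csf3r* and *Csf1r* promoters, was lower with both, at -2.32 and -1.11, the latter rising to -0.89 over the settings. *Fos*, a subunit of AP-1, was at 1.76 and 0.13, and *Cebpd* at 0.32 and -0.92, which made a difference of 1.24 between the strains. *Spi1*, which encodes PU.1, the factor most tied to *Csf1r*, was at -0.38 and -0.76.

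*Nfkb1*, an NF-kB subunit gene, was past 2-fold between the strains only, at 1.10 on its brightest probe, and its probes disagreed, with ratios between the strains from -1.17 to 1.10.

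The *Csf1* promoter is shown because NF-kB is a known activator of this gene. The 250 bases before the transcription start, from RefSeq (GRCm38.p6, chr3:107760470-107760719, minus strand), were searched on both strands for a short form of the NF-kB site (GGGA, any 4 bases, CC), and capitals mark the matches, which begin 231, 155 and 154 bases before the start, the latter pair overlapping.
Csf1 promoter: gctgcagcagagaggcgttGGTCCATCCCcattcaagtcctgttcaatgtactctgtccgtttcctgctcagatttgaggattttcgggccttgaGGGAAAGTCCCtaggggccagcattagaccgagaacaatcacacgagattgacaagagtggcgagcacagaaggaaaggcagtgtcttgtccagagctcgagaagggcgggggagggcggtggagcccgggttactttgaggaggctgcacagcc

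Of 32851 promoters searched in the same way, 17.6% held a match. Promoters of 5 members were in the table, and besides *Csf1* only that of *Csf3r* held a match, at 129 bases before the start. The letters were not in the windows of *Csf2*, *Csf2ra* and *Csf2rb2*. A match is a run of letters and not a site of binding.

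*Csf1*, *Csf2* and *Csf3* mRNAs are short-lived, and proteins that bind AU-rich elements or cut the transcript set their decay. Of 10 genes of such proteins, 1 was at least 2-fold higher and 1 lower with CRL1505, 0 and 2 with CRL1506, and 1 and 0 between the strains. Over all genes compared these shares were 9.6% and 8.53%, 4.68% and 3.44%, and 8.87% and 6.8%. *Zfp36*, which encodes tristetraprolin, the best known destabiliser of *Csf2* mRNA, was at 1.36 with CRL1505 (0.85 at its lowest over the settings) and -0.11 with CRL1506. Its relative *Zfp36l1* was lower with both, at -1.40 and -1.58, although its probes ran from -1.40 to 0.28 and from -1.58 to -0.29, and over the settings it rose to -0.56 and -0.94. *Zc3h12a*, the gene of the endonuclease regnase-1, was at -0.21 and -1.18, the latter rising to -0.83.

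Among 12 genes known to be induced by CSF-1 or GM-CSF, 10 could be compared with LPS for each strain. With each, 0 were at least 2-fold higher and 2 lower, *Plau* and *Pparg* for CRL1505 and *Cish* and *Ccl17* for CRL1506. Over all genes compared, 9.6% were that much higher and 8.53% lower with CRL1505, and 4.68% and 3.44% with CRL1506. Between the strains, 1 of 9 was higher and 2 were lower, where 8.87% and 6.8% of all genes compared were. *Plau*, the urokinase gene and a classical target of CSF-1, was the lowest of the list for CRL1505, at -2.55, and was at -0.95 for CRL1506. *Pparg*, which GM-CSF induces in alveolar macrophages, was at least 3.23-fold lower with CRL1505, again a bound that fell short of 2-fold in at least 1 setting (-0.55), and at -0.68 with CRL1506. *Cish*, a STAT5 target that limits cytokine signals, was at -0.10 and -1.34, and *Ccl17*, a chemokine gene induced by GM-CSF, at -0.82 and -1.18, the latter rising to -0.62 over the settings. The median of the list was -0.62 and -0.80, against 0.01 and -0.07 over all genes compared.

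**Figure D5:**
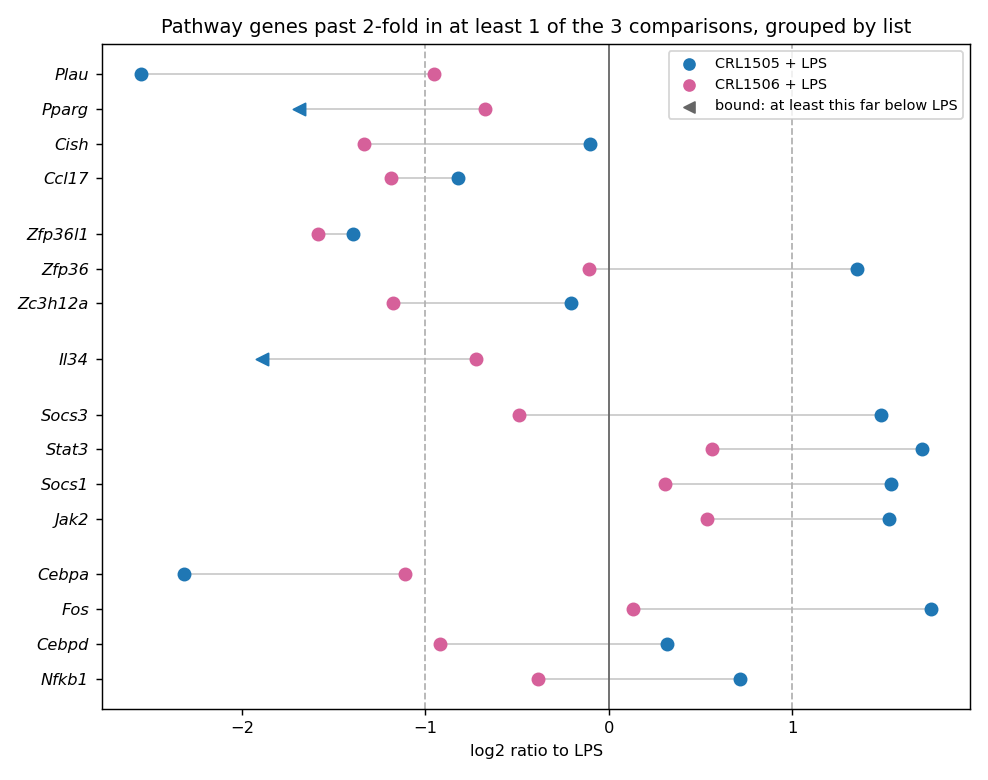
log2 ratio to LPS (x axis) for CRL1505 (blue) and CRL1506 (pink) of up to 4 genes per list that reached 2-fold in at least 1 of the 3 comparisons, from the top genes induced by CSF, mRNA stability proteins, other ligands and receptors, receptor signalling and transcription factors. Triangles are bounds and dashed lines mark 2-fold, with *Socs3* at 1.48 and -0.49 and *Plau* at -2.55 and -0.95.

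Over the 5 lists together, 76 genes without the members, 7 were at least 2-fold higher and 6 lower of 68 compared for CRL1505, 0 and 5 of 70 for CRL1506, and 9 and 5 of 67 between the strains. Over all genes compared, the higher and lower shares were 9.6% and 8.53%, 4.68% and 3.44%, and 8.87% and 6.8%. In either direction the background was 18.1%, 8.12% and 15.7%. The direction depended on scaling, with 4 higher and 18 lower for CRL1505 under spike-in scaling, and 24 higher and 1 lower between the strains with the median shift.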

How the data were processed

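For each array the authors deposited the output of Feature Extraction (12.0.3.1 in the files), in which the processed signal is an intensity after background subtraction, not normalized between arrays. A second table deposited by the authors, used as an alternative, holds log2 values normalized between arrays. For the main values, log2 intensity was shifted by the array's 75th percentile of gene spots (743.1 for LPS, 517 for CRL1505 + LPS, 697.9 for CRL1506 + LPS). Outlier spots (467, 241 and 274) were left out, repeated spots averaged, and the brightest usable probe represented a gene. A ratio with 1 dim side (not well above background) is a bound, and a ratio of 2 dim sides was left out. No gene spot was saturated. Genes past 2-fold were counted. All members were named, and from each list at most 4 genes past 2-fold, by the size of their widest difference. *Inpp5d*, *Cish* as a signalling gene and *Spi1* were added after their values were seen. The values of 1 signalling gene are not reported here. The members and lists were chosen with earlier results of these data known.

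Alternatives were the median shift, quantile normalization, cyclic loess, spike-in scaling, normexp with an offset of 50, the median pixel, the deposited table, outlier spots kept, other filters on dim probes, the mean over probes, and thresholds of 1.5-fold and 4-fold. Keeping outlier spots together with the median pixel, spike-in scaling or the deposited table was added after seeing the data. The 1 array per condition limits the precision. Python 3.11.15, pandas 2.3.3, NumPy 2.4.6, R 4.3.3 and limma 3.58.1 were used, and the procedure was tested on simulated data.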

Additional observations from a re-analysis of the deposited data

Results flagged for a closer look

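*Csf1* went opposite ways with the strains on the brightest probe, at a log2 ratio to LPS of 0.50 for CRL1505 and -0.77 for CRL1506. The 2 other measured probes had the same signs. With spike-in scaling the CRL1505 ratio was -0.01 on the brightest probe and 0.14 and 0.12 on the others. The difference was not tested, since there was 1 array per condition, and both ratios share the LPS array.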

How the results depend on the processing

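Over the settings tried no member that was past 2-fold changed its direction. Under 2-fold, signs turned for *Csf1* and *Csf3r* (CRL1505 against LPS), *Csf2rb* (CRL1506 against LPS) and *Csf2ra*, *Csf2rb* and *Csf2rb2* (between the strains). The members past 2-fold for CRL1505 against LPS numbered 2, and 3 with the median shift or with outlier spots kept, 4 with spike-in scaling, 5 with that and outlier spots kept, 5 at 1.5-fold and 1 at 4-fold. For CRL1506 against LPS they numbered 1, and 2 with the median shift, quantile normalization, cyclic loess, the deposited table, outlier spots kept, and outlier spots kept with the median pixel or spike-in scaling, 3 with outlier spots kept in the deposited table and 4 at 1.5-fold. Between the strains they numbered 3 (3 higher, 0 lower), 4 with quantile normalization and cyclic loess (3 higher, 1 lower), 3 in the deposited table (2 higher, 1 lower), 2 with spike-in scaling (1 higher, 1 lower), 2 of 7 under the strictest filter on dim probes, which leaves out *Csf2*, 5 at 1.5-fold and 1 at 4-fold. Of the list genes, 13 were past 2-fold for CRL1505, and 17 with the median shift, 14 with quantile normalization, 11 with normexp and 22 with spike-in scaling. For CRL1506 there were 5, and 9 with the median shift or spike-in scaling, 6 with quantile normalization and 3 with normexp. Between the strains there were 14, and 25 with the median shift, 11 with spike-in scaling or normexp and 7 with quantile normalization. The cause of these moves was not tested, apart from the lower or higher threshold itself and the *Csf2* spot, which enters where outlier spots are kept. No paired analysis was possible because each condition had 1 array. For the same reason no array could be left out, and the slide could not be taken out as a batch.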
